A study of Mus musculus with 20 samples.

Results

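NSC-34 is an established mouse hybrid line, used as a model of motor neurons, with a neuroblastoma and cells of the embryonic spinal cord as its parents. Here it carries an inducible human HuD (ELAVL4), a neuronal RNA-binding protein. The genes described are those of the vesicle fusion machinery, chosen by symbol: SNAP-25 family members, syntaxins (Stx), VAMPs, synaptotagmins (Syt), syntaxin-binding proteins (Stxbp), synaptogyrins (Syngr), synapsins (Syn), synaptophysin (Syp), SV2 proteins and the disassembly factors Nsf, Napa and Napb. The rule found 56 genes of the 14924 with RNA-Seq counts. It used no measured value.

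Several kinds of libraries were made from these cells. RNA-Seq of total cytoplasmic RNA and POL-Seq of RNA from polysomal gradient fractions had 2 HuD induced and 2 control libraries each. Sequencing of mRNA 3′ ends had 3 libraries per group. CRAC, in which UV light crosslinks a tagged protein to its RNA and reverse transcription leaves deletions at the contact, had 3 HuD and 3 control libraries. For RNA-Seq, POL-Seq and 3′ ends, HuD cells (Trex-HuD NSC-34) received 2 µg/ml tetracycline for 48 h. The labels call the other cells controls and do not say what these received. For CRAC, Trex-HuD cells and control Trex cells, which hold the tetracycline repressor without HuD, both received 10 µg/ml for 24 h. All groups share the NSC-34 background with its own mouse Elavl4, and the transgene is tagged with His and HA and driven by a viral promoter, so the HuD groups carry extra HuD rather than a switch from none.

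SNARE proteins drive membrane fusion. A VAMP on the vesicle pairs with a syntaxin and a SNAP-25 family member on the target membrane, and the zippering of their helices pulls both membranes together. Synaptotagmins make fusion at synapses respond to calcium, syntaxin-binding proteins hold and guide syntaxins, and Nsf with its adaptors Napa and Napb takes used complexes apart. Other syntaxins and VAMPs serve traffic between Golgi, endosomes and lysosomes in every cell. HuD and its relatives bind U-rich stretches, mostly in 3′ UTRs, and are known as regulators of mRNA stability, translation and 3′ end processing in neurons.

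Library totals ran from 21296012 to 36284728 counts for RNA-Seq and POL-Seq and from 12986862 to 15751036 for 3′ ends. Elavl4 stood at 78.3 and 97.4 CPM (counts per 1000000 of library size, scaled by TMM in edgeR) in the total RNA of control cells and at 237 and 212 CPM in that of HuD induced cells. Its polysomal values were 90.3 and 118 CPM against 243 and 225 CPM. The log2 change of Elavl4 with HuD was 1.35 ± 0.15 in total RNA (adjusted p = 0.0866 by edgeR). In polysomal RNA it was 1.17 ± 0.15 (adjusted p = 0.282 by edgeR). Neither passed the adjusted threshold used below, although the groups did not overlap. At the 3′ ends of Elavl4 the counts were lower in the libraries labelled HuD induced (31.4 to 54.6 CPM) than in most controls (38.5 to 78.1 CPM). The log2 change there was -0.49 ± 0.29 (adjusted p = 0.922), and -0.47 with the replicate as a block (adjusted p = 0.0306, both by edgeR). How far RNA of the human transgene is counted at mouse 3′ ends was not tested, so this count does not check the labels. Of 8 motor neuron markers 6 had counts, together 54.0 to 68.2 CPM per library, while Slc5a7 and Mnx1 had none. In control total RNA Isl1 had 40.9, Isl2 8.03, Slc18a3 7.75, Lhx4 1.66, Lhx3 1.31 and Chat 0.524 CPM. The 6 catecholaminergic markers summed to 1090 to 1270 CPM and the 9 neuronal markers to 1420 to 1740 CPM. The neuronal markers ran in control total RNA from Tubb3 at 599 CPM down to Stmn2 at 0.307 and Rbfox3 at 0.226 CPM. Their sum includes the Elavl4 values given above. Glial markers (3 of 7 with counts) and those of blood and endothelium (3 of 5) summed to at most 18.8 and 20.9 CPM. The polysomal control libraries were the least alike of the RNA-Seq and POL-Seq pairs, with an SD of 0.293 for the log2 difference between replicates against 0.156 to 0.224 in the other groups. Among 3′ end libraries, replicate 2 of each group lay apart, with SDs of 0.379 to 0.497 against replicates 1 and 3, which differed by 0.245 and 0.286.

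The CRAC table listed HuD contacts in 10 of the 56 genes (17.9%), beside 9.90% of the 12953 protein coding genes with RNA-Seq counts. These were the syntaxins Stx7, Stx12, Stx16 and Stx11, the vesicle SNAREs Vamp3 and Vamp4, the synaptotagmins Syt11 and Syt4, Syngr1 of the vesicle membrane and Snap91 (AP180), a clathrin adaptor of vesicle retrieval that shares only its symbol with the SNAP-25 family. Stx1a, Snap25, Vamp1, Vamp2 and Syt1, genes of the calcium-triggered synaptic core, had no listed contact. The authors pooled the replicates, so these values carry no replicate error. The 10 genes had a median 3′ UTR (the longest annotated for each gene) of 2438 nt with 32.6% U and a median level (FPKM, defined later) of 25.2. For the 46 without a contact these medians were 1718 nt, 27.2% U and 8.51 FPKM. The same medians over all protein coding genes were 1798 nt, 32.5% and 21.0 FPKM with a contact and 1088 nt, 28.3% and 6.11 FPKM without. The part that length, base composition and level had in which genes were listed was not tested.

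Of the 24 listed windows, 23 lay in 3′ UTRs, and 7 windows of 5 genes are printed here as RNA, 5′ to 3′, with the listed window in capitals and 11 nt to each side. They show what HuD touched in Stx7 and Stx12, which held 14 of the 24 windows, and at the 3′ ends of Syngr1 and Vamp4 described later. Positions are GRCm38.
Stx7, chr10:24188020-24188026 (+): cuuuuugacugAGUUUUGggaauuauuug
Stx7, chr10:24188134-24188140 (+): aguuuaaauuuCAUUUGUccaguaaaugu
Stx12, chr4:132855098-132855104 (-): cgcaaacuuuaCCUUUUUaugaguaucug
Stx12, chr4:132855289-132855295 (-): cauggagacagUAUUUAUcaguuuaugca
Vamp3, chr4:151048341-151048347 (-): accaaaguuucUAUUUUGccaaaaguuaa
Syngr1, chr15:80113393-80113399 (+): aucgcuuccuuGGUUUAUucuuuguguuu
Vamp4, chr1:162599005-162599011 (+): cacaguucaguUCUUUGUguucauacgag
Of the 23 windows of 7 nt, 22 held UUU at positions 3 to 5, beside 97.2% of all such windows in the table, and the base before it was C in 7, A in 7 and G in 8. Windows were kept by the authors for their score against a matrix, so the U core is a property of the selection.

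Stx7, a syntaxin of late endosomes and lysosomes, held 9 windows with up to 322 reads, which placed it 31st by its highest window among 1304 protein coding genes. Its windows fell into a first cluster at 181 to 414 nt after the stop codon and a pair at 1023 and 1157 nt. The transcript on which they were placed has a 3′ UTR of 1241 nt, shorter than the longest annotated for the gene (2502 nt), and lengths given for windows are those of such transcripts. The window with the most deletions (18 of 192 reads) also had the smallest combined p of the authors, 0.00729, not adjusted. Windows a few bases apart share reads, so the summed coverage of 1277 counts some reads more than once.

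Stx12, which serves recycling endosomes, held 5 windows in the first 482 nt of a 1965 nt 3′ UTR. Its highest had 137 reads, and the window at 171 nt had 15 deletions and a combined p of 0.0132. Vamp3, the VAMP of recycling endosomes, held 78 reads in its 3′ UTR, and a second window of 13 reads (the letters UCUUCUG, without the U core) lay on a transcript with a retained intron. Syngr1 had 58 reads, 10 of them with a deletion, at a combined p of 0.0371. Thus 3 genes, Stx7, Stx12 and Syngr1, had a window at a combined p under 0.05, and the same 3 had one with at least 10 deletions. The share of all genes with a contact that reached these limits was not counted.

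The other 6 genes had 1 position each. Vamp4, a VAMP of the trans-Golgi network, had 40 reads at 1928 nt of 2001 nt. Syt11, a synaptotagmin that does not bind calcium, had 27 reads at 1920 nt of 2999 nt. Stx11 had 20 reads in 2 overlapping windows, although its level was only 1.58 FPKM. Syt4 had 9 reads, Snap91 8 and Stx16 7, the last close to the minimum of 6 reads that the authors set. Control coverage was 0 in all 24 windows, where positions with control reads had been penalized.

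**Figure D1:**
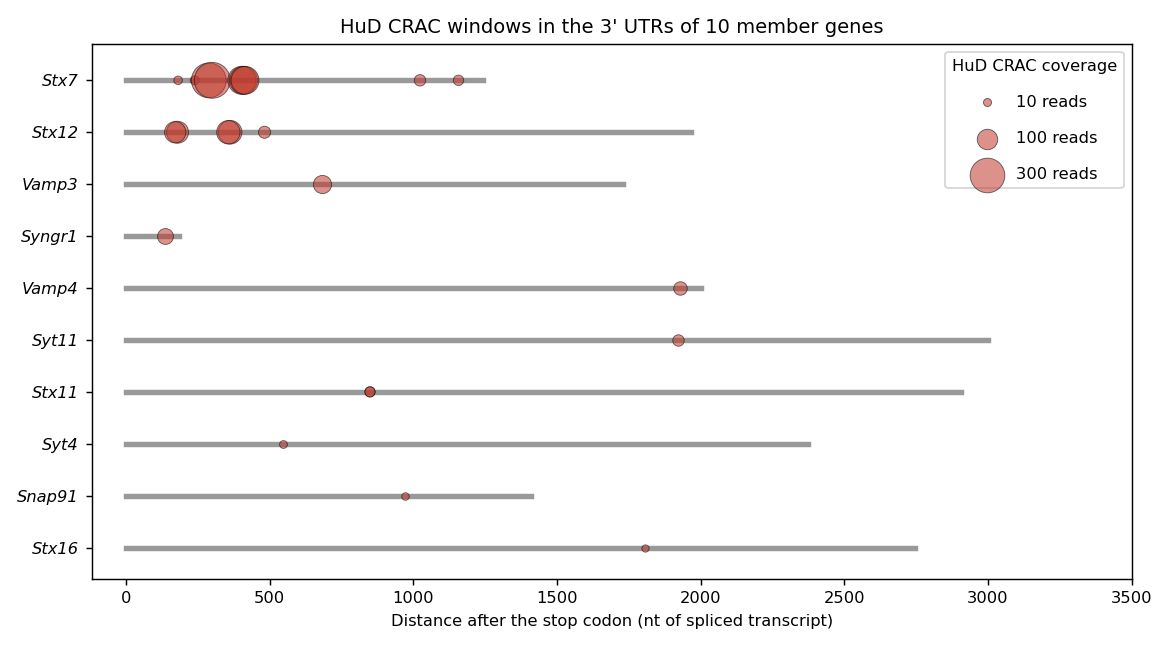
HuD CRAC windows along the 3′ UTRs of the 10 genes. Grey bars are 3′ UTR lengths in nt after the stop codon, circles are windows with area growing with reads, pooled over replicates; the windows with up to 322 reads in Stx7 and 137 in Stx12 lie near the stop codon, and that of Vamp4 (40 reads) near the 3′ end.

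Levels between genes were compared as FPKM, CPM per 1000 nt of merged exons, in the total RNA of control cells (n = 2 libraries). The median of the 56 genes was 9.79 FPKM, beside 6.93 FPKM for protein coding genes, and 34 lay above the latter. At the top by FPKM were Stx12 at 70.9 ± 0.928 (SD), Vamp3 at 67.0 ± 0.169, Syngr2, the synaptogyrin found outside neurons, at 63.7 ± 4.15 and Syt11 at 57.5 ± 1.13 FPKM. The order depended on the measure. By CPM, not divided by exon length, Syt1 was 1st at 340, Syt11 2nd at 299 and Stx12 3rd at 226 CPM. In 3′ end counts of control cells the mean was 817 CPM for Syt1, 128 for Vamp3 and 43.1 for Stx12. In the FPKM order each of the first 4 genes did not overlap in the 2 libraries with the gene below it, down to Napa at 43.5 FPKM. Below it, in the order Napa, Syt1, Snap47, Syt9, Stx1a and Stx16 (34.1 FPKM), each gene overlapped with the next, although the libraries of genes farther apart in this order, such as Napa and Snap47, did not always overlap.

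Within the syntaxins of the plasma membrane, Stx1a stood at 36.1 ± 2.27 FPKM and Stx4a at 32.7 ± 0.436, against 0.720 for Stx3. Exons of Syn3, Stx18, Snap47 and Stx4a overlap those of counted genes on the opposite strand (14.1%, 12.5%, 11.6% and 5.25% of their length), and the strand setting of the counting is not given in the sources used here. Among syntaxins of internal membranes, Stx16 of the Golgi followed Stx12. Vamp2, the main synaptic VAMP, had 28.8 ± 0.870 FPKM, below Vamp3 and above Vamp4 at 17.3, and Vamp5 had 0.761. Snap47 at 39.1 ± 0.452 FPKM exceeded Snap25, the synaptic partner of Stx1a, at 15.9 ± 1.34. Snap91 had 13.8 FPKM.

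Calcium-binding synaptotagmins ranged from Syt1, the sensor of fast release, at 40.7 ± 4.89 FPKM and Syt9 at 37.2 ± 6.68 down to Syt3 at 0.371. The control libraries were far apart for Syt9 (41.9 and 32.5 FPKM) and Syt6 (3.03 and 1.75 FPKM). Of the other synaptotagmins Syt4 followed Syt11 at 15.4, and Syt13 was the lowest member at 0.0982 FPKM. Stxbp5 (tomosyn) had 8.63 FPKM. Of vesicle proteins Syngr1 followed Syngr2 at 20.7 ± 1.75, Syp had 15.1, Syn1 4.05 and Syn3 0.503 FPKM. Nsf had 12.2 and Napb, the brain-enriched relative of Napa, 3.41 FPKM. Altogether 28 members reached 10 FPKM and 7 lay under 1.

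**Figure D2:**
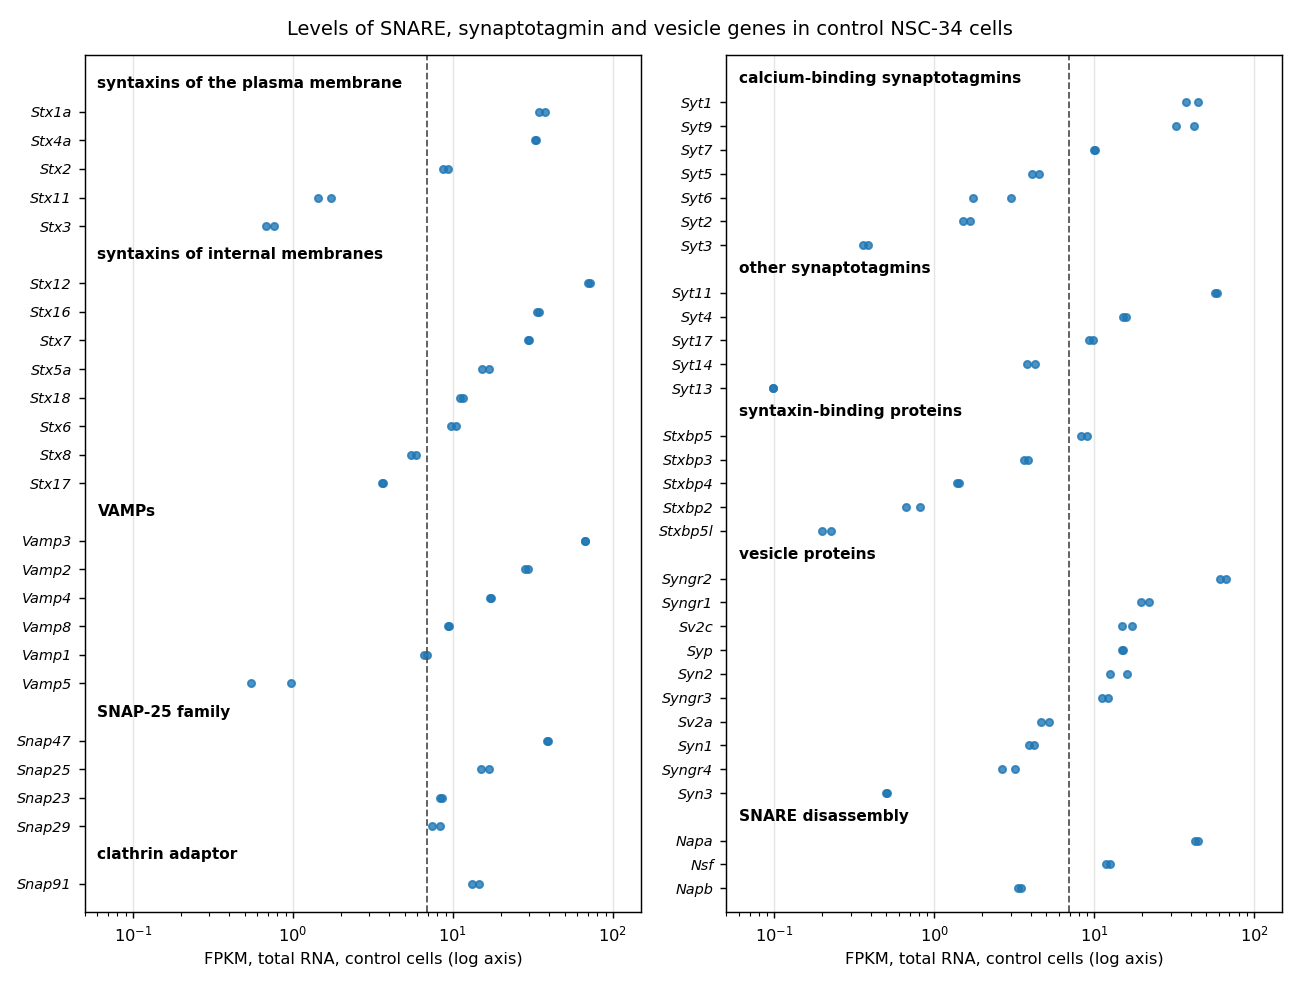
Levels of 54 of the 56 genes in total RNA of control NSC-34 cells, in FPKM on a log axis, each point 1 of 2 libraries, grouped by role. The dashed line is the median of protein coding genes, 6.93 FPKM; Stx12, Vamp3, Syngr2 and Syt11 lie farthest to the right and Syt13 (0.0982 FPKM) farthest to the left.

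The first comparison asked which of these mRNAs were richer or poorer in polysomes than in total RNA of control cells. All 56 genes passed the filter on low counts. With edgeR's quasi-likelihood test, Benjamini-Hochberg adjusted over 14906 genes, 0 members passed an adjusted p of 0.05 in either direction (all genes: 0.0% higher and 0.174% lower), and DESeq2 also gave 0. At an unadjusted p under 0.05, 2 members were higher (4.45% of all genes, 3.57% of members) and 2 lower (6.25% and 3.57%), and DESeq2 gave 5 in all. The members' median log2 difference was 0.04, beside 0.01 for all genes. The groups did not overlap for 14 members with higher polysomal values (all genes 18.9%) and for 9 with lower ones (16.1%, all genes 20.1%).

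Snap25 had 131 and 134 CPM in polysomal against 102 and 115 CPM in total RNA of control cells. All polysomal values lay above all total values, a log2 difference of 0.29 ± 0.09 (SE, unadjusted p = 0.00995, adjusted 0.447 by edgeR). Vamp1, a VAMP of the motor nerve terminal, went the other way, with 55.8 and 57.8 CPM in polysomal and 67.4 and 69.6 CPM in total RNA. Its difference was -0.27 ± 0.08 (unadjusted p = 0.00755, adjusted 0.424 by edgeR). Next by p were Stx4a at -0.29 ± 0.10, Syt14 at 0.21 ± 0.09, Snap23 at 0.20 ± 0.09 and Sv2c, a relative of SV2A, at 0.27 ± 0.13. Stx7 (0.17), Vamp8 (-0.23), Vamp5 (-0.56) and Vamp2 (-0.15) complete the 5 smallest p-values in each direction.

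By role, all 4 SNAP-25 family members and all 6 syntaxin-binding proteins had positive differences (medians 0.17 and 0.13), while 5 of 6 plasma membrane syntaxins and 4 of 6 VAMPs had negative ones (medians -0.09 and -0.19). Of all genes tested 51.7% had positive differences, and none of these members passed the adjusted threshold. Without replicate 1 of polysomal control, which leaves 1 library in that group, assumed to vary like the other groups, 2145 genes in all and 5 members passed. These were Syt1 (0.41), Sv2c (0.42) and Nsf (0.29) with higher and Syngr1 (-0.36) and Vamp8 (-0.42) with lower polysomal values.

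The next comparison asked how the total RNA of these genes differed between HuD induced and control cells. These are bulk samples, in which more RNA per cell and more cells with that RNA cannot be told apart. With edgeR and with DESeq2, 0 members and 0.0% of all genes in either direction passed an adjusted p of 0.05. Elavl4, the induced gene, was not called by edgeR either, so the absence of calls does not show that members were unchanged. At an unadjusted p under 0.05, 3 members were higher (5.36%, all genes 1.78%) and 0 lower (all genes 0.865%), and DESeq2 gave 1. The groups did not overlap for 13 members with higher values (23.2%, all genes 15.1%) and for 11 with lower ones (19.6%, all genes 16.7%). Of 56 members 29 had a value above 0, with a median of 0.01 beside 0.00 for all genes (lowest -0.53 for Syt13, highest 0.31 for Stxbp5l, the members with the lowest FPKM).

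Sv2a, a glycoprotein of all synaptic vesicles, had 21.7 and 24.1 CPM in control and 27.7 and 27.6 CPM in HuD induced cells. Both induced libraries lay above both controls, with a log2 change of 0.27 ± 0.10 (unadjusted p = 0.0230, adjusted 1.0 by edgeR). Syt2, the fast calcium sensor of motor terminals, had 12.7 and 11.6 CPM against 14.2 and 15.0 CPM, a change of 0.27 ± 0.11 (unadjusted p = 0.0300). Vamp1 had 67.4 and 69.6 CPM against 76.3 and 79.4 CPM, a change of 0.18 ± 0.08 (unadjusted p = 0.0427). All 3 had both HuD libraries above both controls. Vamp2 (0.17 ± 0.09) and Napb (0.23 ± 0.12) came next. On the lower side the smallest p-values were those of Syngr2 (-0.18 ± 0.08), Stxbp4 (-0.20 ± 0.11), Syt13 (-0.53 ± 0.46), Vamp5 (-0.35 ± 0.30) and Stx6 (-0.09 ± 0.08). None of them passed the unadjusted threshold (smallest unadjusted p = 0.0671 for Syngr2 by edgeR), although the groups overlapped only for Vamp5.

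In polysomal RNA, the comparison of HuD induced with control cells again gave 0 members and 0.0% of all genes in either direction at an adjusted p of 0.05, with edgeR and with DESeq2. Elavl4 was again not called by edgeR, so the same limit holds here. At an unadjusted p under 0.05, 5 members were higher (8.93%, all genes 2.29%) and 1 lower (1.79%, all genes 1.89%), and DESeq2 gave 5 in all. Groups did not overlap for 17 members with higher values (30.4%, all genes 14.1%) and for 3 with lower ones (5.36%, all genes 14.6%). The median of the members was 0.04, beside -0.01 for all genes, and 37 of 56 were above 0.

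Vamp4 had 85.6 and 87.0 CPM in control and 107 and 104 CPM in HuD polysomes. Both HuD libraries lay above both controls, and the log2 change was 0.29 ± 0.08 (unadjusted p = 0.00439, adjusted 0.969 by edgeR), place 35 among the 14906 genes by p. Snap25 had 131 and 134 CPM against 164 and 160 CPM, a change of 0.29 ± 0.09 (unadjusted p = 0.00876). Sv2a had 21.7 and 24.5 CPM against 28.4 and 28.1 CPM, a change of 0.29 ± 0.10 (unadjusted p = 0.0169). In total RNA the changes of Snap25 and Sv2a were 0.10 ± 0.09 and 0.27 ± 0.10.

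Vamp2 had 97.4 and 100.3 CPM against 109.8 and 124 CPM, a change of 0.24 ± 0.09 (unadjusted p = 0.0238). Syngr1 had 102 and 77.5 CPM in control and 112 and 112 CPM in HuD polysomes. Its log2 change was 0.32 ± 0.12 (unadjusted p = 0.0263 by edgeR). The size rested on which control library was taken, with 0.15 without replicate 2 of polysomal control and 0.53 without replicate 1. Stxbp4, a syntaxin 4 binding protein, had 17.3 and 19.9 CPM against 15.9 and 14.7 CPM, a change of -0.28 ± 0.11 (unadjusted p = 0.0315). Stx18 (-0.15 ± 0.08), Syt9 (-0.20 ± 0.16), Syt6 (-0.45 ± 0.40) and Nsf (-0.11 ± 0.11) followed on the lower side, and these did not pass the unadjusted threshold.

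**Figure D3:**
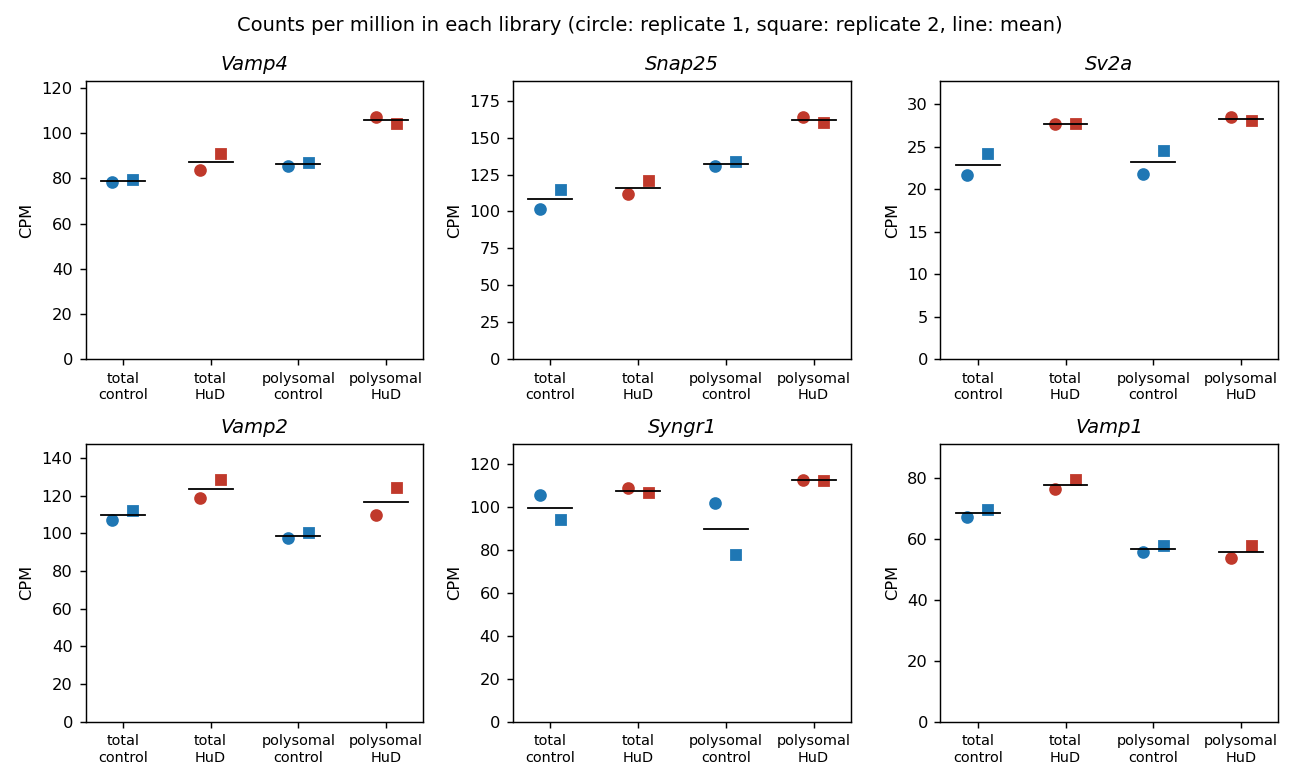
CPM of 6 genes in the 8 RNA-Seq and POL-Seq libraries (blue control, red HuD; the line is the mean of 2). Vamp4, Snap25, Sv2a, Vamp2 and Syngr1 have both HuD polysomal libraries above both controls, while Vamp1 is lower in polysomal than in total RNA and separates by HuD only in total RNA.

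All 10 members with a CRAC contact had a polysomal change above 0, with a median of 0.15, from 0.02 for Stx12 and Vamp3 to 0.35 for Stx11. In total RNA 6 of the 10 were above 0 (median 0.01). Of the 46 members without a contact 27 were above 0 in polysomal RNA (58.7%, median 0.03), and of all 1336 genes with a contact 49.9% (median 0.00), beside 48.4% of all genes tested. The count of 10 was 8 without replicate 1 of polysomal control and 9 without its replicate 2 or without replicate 2 of polysomal HuD, with medians of 0.12, 0.13 and 0.15. No test was run of the difference between members and other genes with a contact, and of the 10 members 2 (Vamp4 and Syngr1) passed the unadjusted threshold in polysomal RNA.

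Translational efficiency was compared as the change of the polysomal to total RNA ratio with HuD, in 1 model over the 8 libraries. With edgeR 0 members passed an adjusted p of 0.05 (all genes 0.0% in both directions) and 0 an unadjusted p of 0.05 (all genes 0.409% higher, 0.570% lower), and DESeq2 gave 0 and 0. The members' median was 0.02, beside -0.01 for all genes. The smallest p was that of Vamp1, whose RNA was higher in total but not in polysomal RNA of HuD cells (53.7 and 57.9 CPM), giving a ratio change of -0.21 ± 0.11 (unadjusted p = 0.0914, adjusted 1.0 by edgeR). Stx17 (-0.17 ± 0.13), Sv2c (-0.23 ± 0.18), Syt2 (-0.18 ± 0.15) and Syt14 (-0.12) were next on the lower side.

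On the higher side, Vamp5 had 0.75 ± 0.43 at under 3 CPM, Snap25 0.19 ± 0.13, Snap91 0.17 ± 0.12, Vamp4 0.15 ± 0.11 and Stx11 0.42 ± 0.33. All 10 members with a contact were above 0 (median 0.12), a count that uses the same polysomal libraries as the one above. The count was 8 without replicate 1 of polysomal control and 9 or 10 when another library was left out. Of all genes with a contact 56.4% were above 0 (median 0.02), from 46.9% to 72.2% when 1 library was left out. By role, 6 of 7 calcium-binding synaptotagmins (median -0.06) and 4 of 6 syntaxin-binding proteins were below 0. Above 0 were 4 of 4 SNAP-25 family members, 5 of 6 VAMPs, 5 of 6 plasma membrane syntaxins and 8 of 10 vesicle proteins. Of all genes tested 48.2% were above 0.

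The 3′ end libraries gave a second measure of mRNA abundance in 47 of the 56 genes. Stx4a, Stx16, Syngr4, Syt3, Syt13, Syt17, Stxbp5l, Syn3 and Vamp5 had no 3′ end counts here. With edgeR over 9621 genes 0 members passed an adjusted p of 0.05 (all genes 0.0208% higher, 0.0312% lower), and DESeq2 gave 0. At an unadjusted p under 0.05, 5 members were higher (10.6%, all genes 2.87%) and 1 lower (2.13%, all genes 3.00%), and DESeq2 gave 7 in all. The members' median was 0.05, beside 0.00 for all genes, and 31 of 47 were above 0. Same-numbered libraries of both groups deviated together, so the fit was also made with the replicate as a block. With the block 2 members were called higher (4.26%, all genes 1.04%) and 0 lower (all genes 1.22%), and 14 and 4 passed the unadjusted threshold (29.8% and 8.51%, all genes 8.64% and 10.1%).

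Both members called with the block were low in replicate 2 of each group. Napb had 20.6, 9.81 and 21.3 CPM in controls 1 to 3 and 28.2, 13.7 and 30.5 CPM in the same-numbered HuD libraries, higher in 3 of 3 pairs. Its log2 change was 0.48 ± 0.35 (adjusted p = 0.952) without and 0.49 (adjusted p = 0.0463) with the block, both by edgeR. Without the block, the change was 0.21 when replicate 2 of control was left out, 0.28 without replicate 3 of HuD and 0.77 without replicate 2 of HuD. Stxbp2 (Munc18-2), the partner of syntaxin 11 in secretory cells of the blood, had 3.28, 0.872 and 2.41 CPM against 4.90, 2.54 and 5.71 CPM, also higher in 3 of 3 pairs. Its change was 0.99 ± 0.45 (adjusted p = 0.868) without and 1.04 (adjusted p = 0.0477) with the block by edgeR, and 0.62 without the block when replicate 2 of control was left out (0.74 to 1.40 for the other libraries). Napb was also higher in total RNA (23.4 and 24.7 against 26.3 and 30.0 CPM), with an unadjusted p of 0.0913 by edgeR.

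Stx7, the gene with the most CRAC reads among these, had 56.3, 63.7 and 58.5 CPM at its 3′ end in control and 71.6, 76.7 and 80.4 CPM in HuD libraries. The groups did not overlap, and the log2 change was 0.36 ± 0.12 (unadjusted p = 0.0161, adjusted 0.694 by edgeR). In total RNA the same gene had 132 and 134 against 132 and 127 CPM, a change of -0.04 ± 0.08. Syp, the major vesicle membrane protein, had 12.6, 15.9 and 15.1 CPM against 18.2, 22.0 and 20.6 CPM (0.48 ± 0.16, unadjusted p = 0.0152 by edgeR), with -0.04 ± 0.07 in total RNA. Sv2a was higher here too, with 7.25, 6.76 and 4.76 CPM against 9.43, 9.95 and 8.90 CPM (0.59 ± 0.21, unadjusted p = 0.0186 by edgeR). Without the replicate block it was the only member past the unadjusted threshold in total RNA, in polysomal RNA and at 3′ ends. With the block Napb, Vamp2 and Syt6 (lower) passed in all of these too, although total and polysomal RNA numbers were not taken as pairs. How many of all genes passed in all of these was not counted, so the passes do not set these members apart.

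Syt7, a slow calcium sensor, had a change of 0.34 ± 0.12. On the lower side Syngr1 had 256, 298 and 269 CPM in control and 212, 214 and 244 CPM in HuD libraries, without overlap (-0.30 ± 0.12, unadjusted p = 0.0350, adjusted 0.836 by edgeR). Syt6 (-0.66 ± 0.29), Syn2 (-0.33 ± 0.15), Stx6 (-0.36 ± 0.20) and Syngr2 (-0.18 ± 0.11) followed. Groups did not overlap for 6 members in each direction (12.8%, all genes 6.23% higher and 5.81% lower). The sign of the 3′ end change was that of total RNA for 26 of 47 members (55.3%), beside 55.8% of all genes, and that of polysomal RNA for 29 (61.7%), beside 56.6%. Of the 9 members with a contact and 3′ end counts 7 were above 0 (median 0.04), and 3 to 8 when 1 library was left out (3 without replicate 3 of HuD, 4 without replicate 2 of control). Of the 38 members without a contact 24 were above 0 (63.2%, median 0.06). The share was 51.2% for all genes with a contact (median 0.00) and 50.1% for all genes tested.

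**Figure D4:**
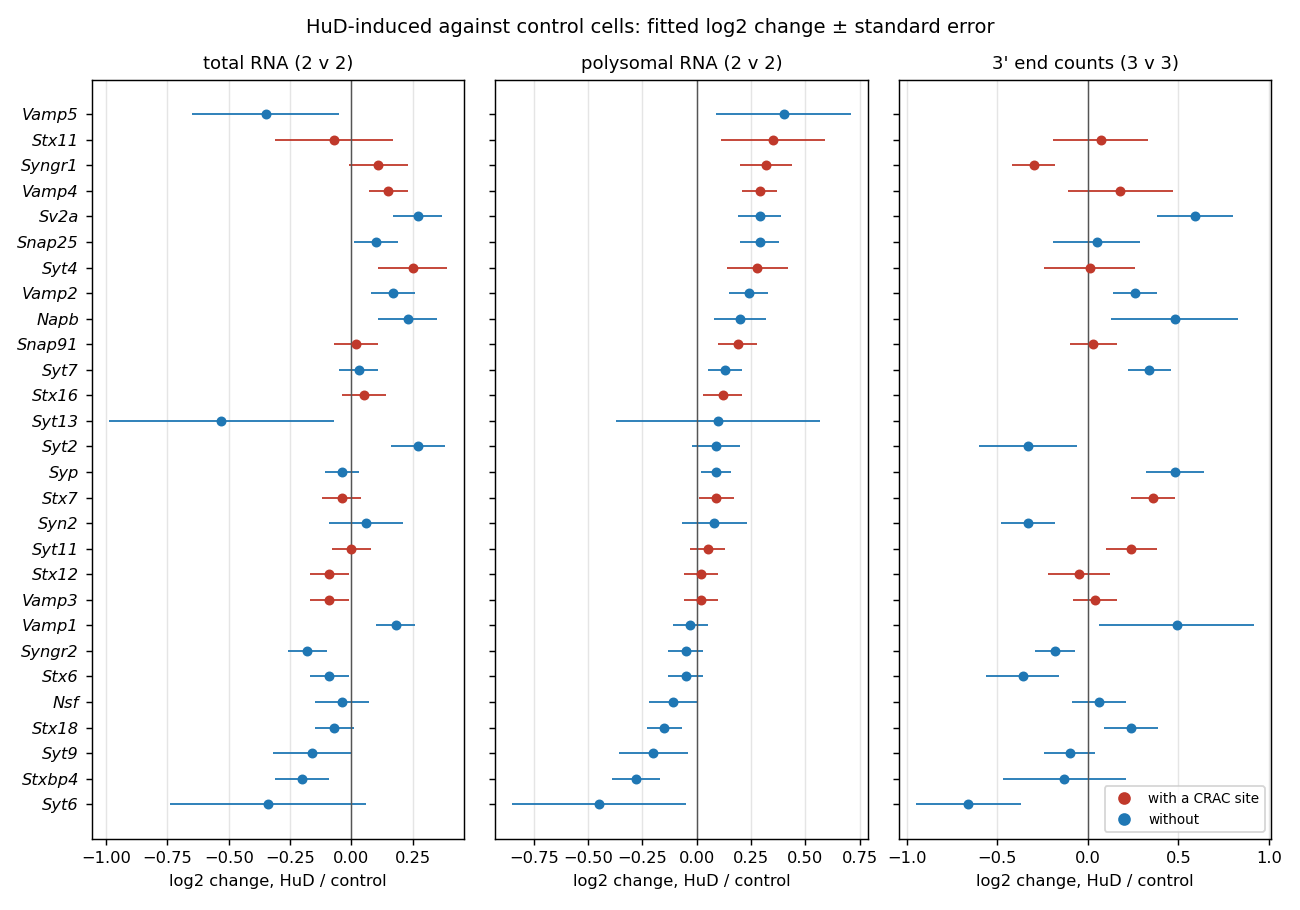
Fitted log2 change of HuD induced against control cells, ± SE, for members named in a HuD comparison or with a CRAC contact (red), in total RNA, polysomal RNA and 3′ end counts; genes without 3′ end counts have no point in the third panel, and each panel has its own axis range. The 10 red points lie above 0 in polysomal RNA (0.02 to 0.35), Sv2a is above 0 in all 3 panels, and Syngr1 is above 0 in polysomal RNA (0.32) and below at 3′ ends (-0.30).

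For 6 members the 3′ ends could be told apart as 2 ends after ends within 20 nt were merged, and 41 had 1 end. Syngr1, a tetraspan protein of synaptic vesicles, had the clearest shift. Its proximal end, at 80113441 on chromosome 15, ends the transcript with 191 codons, and the distal end, at 80119501, that with 234 codons, so both transcripts differ in coding length. The distal end took 12.9%, 11.1% and 11.6% of the gene's 3′ end counts in control libraries and 16.8%, 15.7% and 16.3% in HuD libraries. Means were 11.9% ± 0.901 and 16.3% ± 0.539 (SD, n = 3), without overlap, at the smallest p that a two-sided exact permutation test of 3 against 3 can give, 0.1.

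Proximal counts were 3531, 3645 and 3742 in control and 2368, 2627 and 3071 in HuD libraries, whereas distal counts were 522, 457 and 491 against 479, 491 and 596. The lower 3′ end total of Syngr1 thus lay at the proximal end. The HuD contact printed above was listed on 1 transcript and was placed on that with 191 codons, 42 nt before that proximal end. All 3′ end counts of the gene lie downstream of the contact in the genome. The distal end belongs to another transcript, and whether distal mRNAs hold the contact was not tested. Across the 3317 genes with at least 2 ends, diffSpliceDGE gave Syngr1 an unadjusted p of 0.0518, place 6, and 0.00363 with the block, place 7, with an adjusted p of 1.0 in both. With ends merged and the block, where of 6 members Syngr1 passed the unadjusted threshold (all genes 2.86%) and 0 the adjusted one (all genes 0.0697%), its adjusted p was 0.364. Of 17 members tested 0 passed an adjusted or unadjusted p of 0.05 (all genes 0.0301% and 0.151%), and with the block 1, Syngr1, passed the unadjusted one (all genes 0.995%).

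Vamp4, with a contact 73 nt before its distal end, was the other of the 6 members whose distal shares did not overlap. How often such shares did not overlap over all genes with 2 ends was not counted. Those of Vamp4 were 89.8%, 91.6% and 91.6% in control and 92.9% in each HuD library, with proximal counts of only 14 to 37 (exact permutation p = 0.1, diffSpliceDGE with merged ends unadjusted p = 0.881). Distal shares of Syt1 (99.2% and 99.4%), Napb (48.8% ± 13.6 and 45.8% ± 6.93) and Stx6 (50.8% and 49.7%) overlapped between groups. In Napb the distal share was highest in replicate 2 of each group (64.4% and 53.8%).

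**Figure D5:**
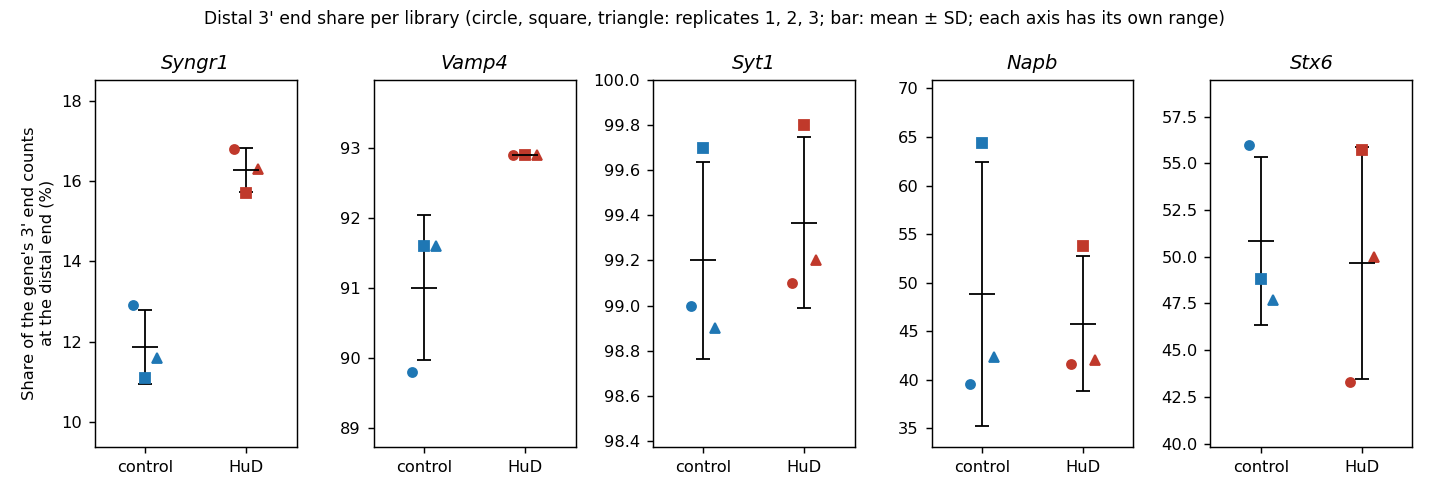
Share of the 3′ end counts of 5 genes at the distal of 2 ends, in percent, in 3 control (blue) and 3 HuD (red) libraries with mean ± SD; each panel has its own axis range. Syngr1 goes from 11.1 to 12.9% in control to 15.7 to 16.8% in HuD libraries, and the other genes except Vamp4 overlap.

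Other genes of the pathway were counted from 2 lists, of which 36 exocytosis partners and 18 other SNAREs and fusion factors had counts. None of either list had an adjusted p under 0.05 in any comparison with edgeR without the block. At an unadjusted p under 0.05, 2 partners (Rab3c and Sypl) were higher (5.56%, all genes 4.45%) and 1 (Sytl1) lower (2.78%, all genes 6.25%) in polysomal than in total RNA of control cells, and of the second list 0 were higher and 2 (Bet1l and Use1) lower. Under HuD, 2 partners were higher (5.56%, all genes 1.78%) and 1 lower (2.78%, all genes 0.865%) in total RNA, and 4 higher (11.1%, all genes 2.29%) and 1 lower (2.78%, all genes 1.89%) in polysomal RNA. Rab3a, the small GTPase of synaptic vesicles, was first in both, with 0.25 ± 0.09 (unadjusted p = 0.0211) and 0.33 ± 0.09 (unadjusted p = 0.00578, adjusted 0.969 by edgeR). Doc2g (0.77 ± 0.32) and Rab27a (-0.22 ± 0.09) stood beside it in total RNA, and Ppfia3 (0.31 ± 0.11) and Rims2 (-0.27 ± 0.11) in polysomal RNA. No gene of the second list passed in either, and none of both lists for the ratio. At 3′ ends 2 of 24 partners were higher (8.33%, all genes 2.87%) and 1 lower (4.17%, all genes 3.00%), and 0 of the 13 others in the second list. Slc18a2, the vesicular monoamine transporter, had 1.49 ± 0.42 and Slc18a3, the vesicular acetylcholine transporter, -1.10 ± 0.35 (unadjusted p = 0.00621 and unadjusted p = 0.0111, adjusted 0.527 and 0.665 by edgeR). The mean of Slc18a3 was 7.75 CPM in control and 7.31 CPM in HuD cells in total RNA, and 7.39 and 7.63 CPM in polysomal RNA. With the block Slc18a2 alone of both lists was called. In CRAC 0 of the 36 partners and 3 of the 18 fusion factors (Gosr2, Sec22a and Sec22b) had a contact, beside 9.90% of protein coding genes.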

How the data were processed

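For RNA-Seq, POL-Seq and 3′ ends, the authors deposited raw counts, per gene and per known 3′ end, from STAR 2.5.3a on GRCm38.p4. For CRAC, the authors aligned with TopHat2 2.0.14, pooled the replicates, and deposited sites with a signal (coverage in reads), a count of deletions, a combined p-value (not adjusted) and a score against a weight matrix. Windows were placed by their match to GENCODE vM21 transcripts, which also gave exon lengths for FPKM. Lines with the same 3′ end were counted once.

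Counts were tested with edgeR 4.0.16 in R 4.3.3 (TMM, filterByExpr, quasi-likelihood, 1 mean per group, Benjamini-Hochberg over all genes at 0.05), the 3′ end choice with diffSpliceDGE and Simes' method. DESeq2 1.42.0 was an alternative, and others changed the normalization, filter, libraries and block. Tables and exact tests used Python 3.11.15, pandas 2.3.3 and SciPy 1.17.1, and figures matplotlib 3.10.9. The procedures were tested on simulated data. Libraries of a group are labelled as biological replicates, and p-values measure the spread between them.

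Same-numbered 3′ end libraries had deviations from their group means that correlated at 0.400, 0.657 and 0.515, from which the pairing is taken. RNA-Seq and POL-Seq numbers, with 2 libraries per group, were not taken as pairs.

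The members and gene lists were chosen with earlier results of these data known. Genes named are those with a CRAC site, those called, the 5 smallest p-values in each direction of each comparison and the 2 highest levels per role. Members singled out beyond these were chosen after their values were seen. Some members enter every count but are not reported by name here.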

Additional observations from a re-analysis of the deposited data

Results flagged for a closer look

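For 4 genes the libraries of HuD and control cells separated in opposite directions in different measurements. How many of all genes did so was not counted, so this does not set these members apart. Syngr1 had a log2 change of 0.11 in total RNA and 0.32 in polysomal RNA but -0.30 in 3′ end counts. Stxbp5 had 0.09 in total RNA and 0.08 in polysomal RNA but -0.24 in 3′ end counts, at 1.78 to 2.40 CPM. Syp had -0.04 in total RNA, 0.09 in polysomal RNA and 0.48 in 3′ end counts. Stx17, an autophagosomal syntaxin, had 0.13 in total RNA and -0.04 in polysomal RNA. The difference between total and polysomal RNA was tested as the change of their ratio, with unadjusted p-values of 0.215 for Stx17 and 0.240 for Syp by edgeR, both at an adjusted p of 1.0. The differences that involve 3′ end counts come from separately normalized tables and were not tested.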

How the results depend on the processing

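Of 157 summary values over alternatives 129 stayed within 1.5 times of the reported one, and 665 of 670 gene values kept direction and side. Leaving out single libraries, the members at an unadjusted p under 0.05 numbered 1 to 16 for polysomal against total RNA, 0 to 7 for HuD in total RNA, 3 to 8 in polysomal RNA, 0 to 3 for the ratio, 3 to 14 at 3′ ends and 0 to 1 for 3′ end choice. Those at an adjusted p under 0.05 numbered 0 to 5 for polysomal against total RNA and 0 to 1 for HuD in polysomal RNA. The highest values came without replicate 1 of polysomal control (5, 16, 1, 8 and 3), without its replicate 2 (7) and without replicate 2 of 3′ end HuD (14 and 1). Vamp5 in total RNA went from -0.71 without replicate 2 of total RNA control to 0.11 without its replicate 1, and Nsf in polysomal RNA from -0.27 without replicate 1 of polysomal control to 0.07 without its replicate 2. For HuD in total RNA DESeq2 gave 1 and a fit to the 4 libraries compared 6 members. Member counts in this section from DESeq2, this fit and single libraries left out stand without the share of all genes. So do the DESeq2 counts at an unadjusted p under 0.05 given earlier. None of these counts shows whether members passed more often than other genes. With the replicate block the unadjusted counts were 10, 8, 12, 2 and 18, and 1 for 3′ end choice, also with merged ends (added after the data were seen). In the first 4 the libraries, 2 per group, share only a number, although their deviations correlated at 0.188 to 0.387, and all genes passing were 10.7% and 9.92% (higher and lower), 3.58% and 2.58%, 4.31% and 4.98%, and 1.09% and 1.34%. At 3′ ends the pairing gave 2 members at an adjusted p under 0.05, and the block changed no other call of a member. Members with a CRAC contact fell from 10 to 3 at a combined p under 0.05, and to 3 at 10 deletions or more, and the fall over all genes was not counted. The causes were not tested, beyond that fewer libraries or sites enter some settings. Low counts left wide errors, as for Syt13 (SE 0.46 in total RNA).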
